A study of Homo sapiens with 4 samples.

Results

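Before a fatty acid can be burned, it is joined to coenzyme A by an acyl-CoA synthetase, and a thioesterase can undo that step. The carnitine palmitoyltransferases carry long-chain acyl groups into the mitochondrion, where acyl-CoA dehydrogenases and the trifunctional protein shorten them to acetyl-CoA. In myeloid leukemia cells this pathway is known as a source of energy and reducing power beside glycolysis and glutamine use. The members described here were all genes whose symbol on the array placed them in 1 of 9 families: the acetyl-CoA (ACSS), medium-chain (ACSM), long-chain (ACSL) and other (ACSF) synthetases, the acyl-CoA binding proteins (ACBD), the thioesterases (ACOT), the carnitine palmitoyltransferases (CPT), the acyl-CoA dehydrogenases (ACAD) and the hydroxyacyl-CoA dehydrogenases with the trifunctional protein (HADH). They came to 45 of the 19561 named genes, on 68 probes. The families were chosen with the difference between the lines already known, so that difference is given for them as a description, without a test.

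NB4 is a cell line grown from an acute promyelocytic leukemia, and arsenic trioxide (ATO) is a drug used against that disease. The study compared 2 flasks of naive NB4 cells with 2 flasks of an ATO resistant derivative, NB4-VM-AsR1 in the labels and NB4-EV-AsR1 in the methods. The methods call the resistant line a clone and state that it was kept without ATO for 1 week before RNA was taken, and both lines grew in RPMI with fetal bovine serum. Total RNA of each flask was labelled with Cy3 and hybridised to 1 array, and because the resistant cells are 1 clone, what belongs to resistance and what belongs to that clone cannot be told apart.

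All 4 arrays lay on 1 slide, with the naive flasks in the first 2 positions and the resistant flasks in the last 2, so position and line cannot be told apart. Between 27922 and 28244 of 41000 probes were well above background on each array, and across probes the flasks correlated with Pearson's r of 0.976 within the naive line and 0.994 within the resistant line. Of 7 promyelocyte markers, 6 were well above background on all 4 arrays, with MPO (myeloperoxidase) between 5.96 and 6.29 on the log2 scale explained below, where its probe was saturated. Of markers of other cell types, both epithelial ones (EPCAM, at 1.14 or higher, and KRT19) and the lymphoid CD3E were also well above background on all 4 arrays, and none of 2 erythroid, 3 fibroblast and 3 hepatocyte ones was. The granule protease gene ELANE was above background on 1 naive array and both resistant arrays. ELANE and AZU1 were called higher in the resistant line, by 2.49 and 1.17 on the log2 scale, and ANPEP was called lower, by a log2 difference of -1.83; the part of such shifts in the results below was not tested. In these whole-culture samples, fewer cells that express a gene and less RNA per cell cannot be told apart.

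The measurement of a gene rests on what its probe can bind. The probes of 5 members that the results turn on, all within coding sequence, are shown as the array files give them, 60 bases each and 5′ to 3′. The ACSS1, ACSM3, ACSM1 and ACSF2 probes report members whose difference was called, and the ACADS probe reports the dehydrogenase with the largest difference.
ACSS1 (dimmer of 2 probes): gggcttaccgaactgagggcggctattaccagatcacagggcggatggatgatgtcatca
ACSM3: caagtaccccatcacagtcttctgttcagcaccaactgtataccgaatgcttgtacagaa
ACSM1: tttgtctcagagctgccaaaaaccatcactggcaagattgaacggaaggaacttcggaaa
ACSF2: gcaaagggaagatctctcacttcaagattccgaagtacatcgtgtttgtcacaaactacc
ACADS: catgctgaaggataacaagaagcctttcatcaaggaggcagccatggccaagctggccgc
None of these 5 shared a run of 20 bases with a probe of another gene on the array. The probes of ACOT1 and ACOT2, neighbouring paralogs on chromosome 14, did: 49 of their 60 bases were the same, beginning with CTCTCCTGGAAACATCTGCCACATTTAGTG (capitals mark bases found in both). The signals of these ACOT1 and ACOT2 probes are therefore not separate measurements. The ACBD7 probe shared runs of 20 bases with 9 probes of 9 other genes and is placed on chromosome Y in the file while the gene lies on chromosome 10, and its values are uncertain.

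Values below are log2 signal minus the 75th percentile of the array, so that 0 is the 75th percentile, and where a gene has several probes the brightest one on average stands for it. Levels of different genes are not comparable on this scale because probes differ in how well they bind. A probe was tested if both flasks of 1 line or the other were well above background, and it was called when limma's Benjamini-Hochberg adjusted p over all 28221 tested probes was below 0.05 and the difference was at least 2-fold. Of the 45 members, 41 passed the filter. ACADL and ACOT4 were well above background on no array. ACSS3 was so on 1 array of each line, as was 1 of 3 ACSM5 probes, and none of these 4 genes was tested.

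**Figure D1:**
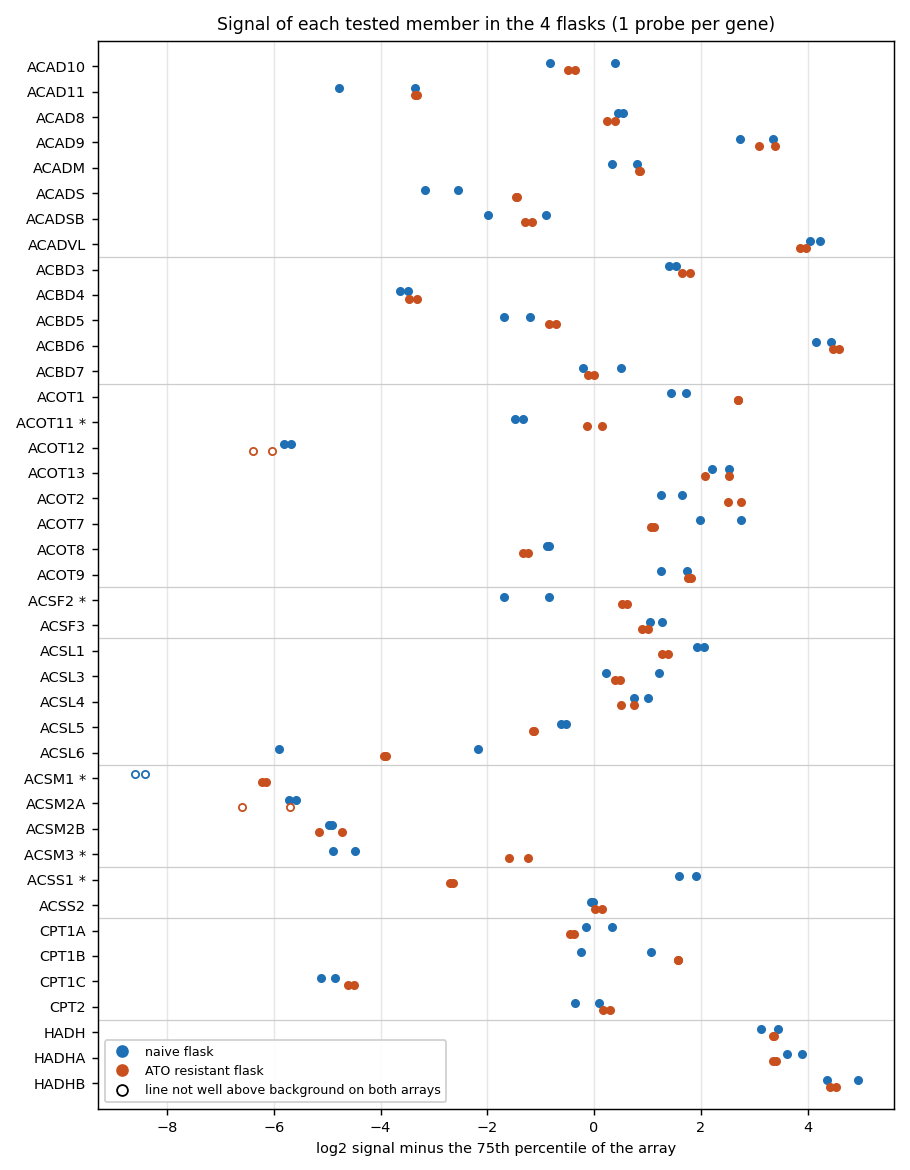
Signal of the 41 tested members (log2 signal minus the array's 75th percentile, horizontal axis) in the 2 naive (blue) and 2 ATO resistant (orange) flasks, grouped by family, with called members starred. Open points mark a line that was not well above background on both of its arrays. ACSS1 sits at 1.59 and 1.92 in the naive flasks and at -2.69 and -2.64 in the resistant flasks, ACSM3 is higher in both resistant flasks, and the 2 naive flasks of ACSL6 lie on either side of the resistant pair.

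Of the 41 tested members, 5 were called, which is 12.2% against 6.16% of the 14667 genes tested in all. Those called higher in the resistant line were ACSM3, ACSM1, ACSF2 and ACOT11, and 2.87% of all genes were called higher. ACSS1 was called lower, as were 3.29% of all genes. The flasks of the lines did not overlap for 29 members, against 57.3% of all genes with 4 values. As the families were proposed from this contrast, nothing is read from these shares. The median difference (resistant minus naive) of the members was 0.12 on the log2 scale, against 0.0011 over all genes, and 31 of the 41 lay within 2-fold. The difference of ACSS1 was -4.585 without naive flask 1, -4.258 without naive flask 2 and -4.396 without resistant flask 1. For ACSM3 it was 3.06, 3.485 and 3.089. ACSM1, ACSF2 and ACOT11 were not called when either resistant flask was left out. When a naive flask was left out, calls rose over all genes as well as among the members. With normexp background correction or the methods' t-test, 0 members and 0 of all genes were called.

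**Figure D2:**
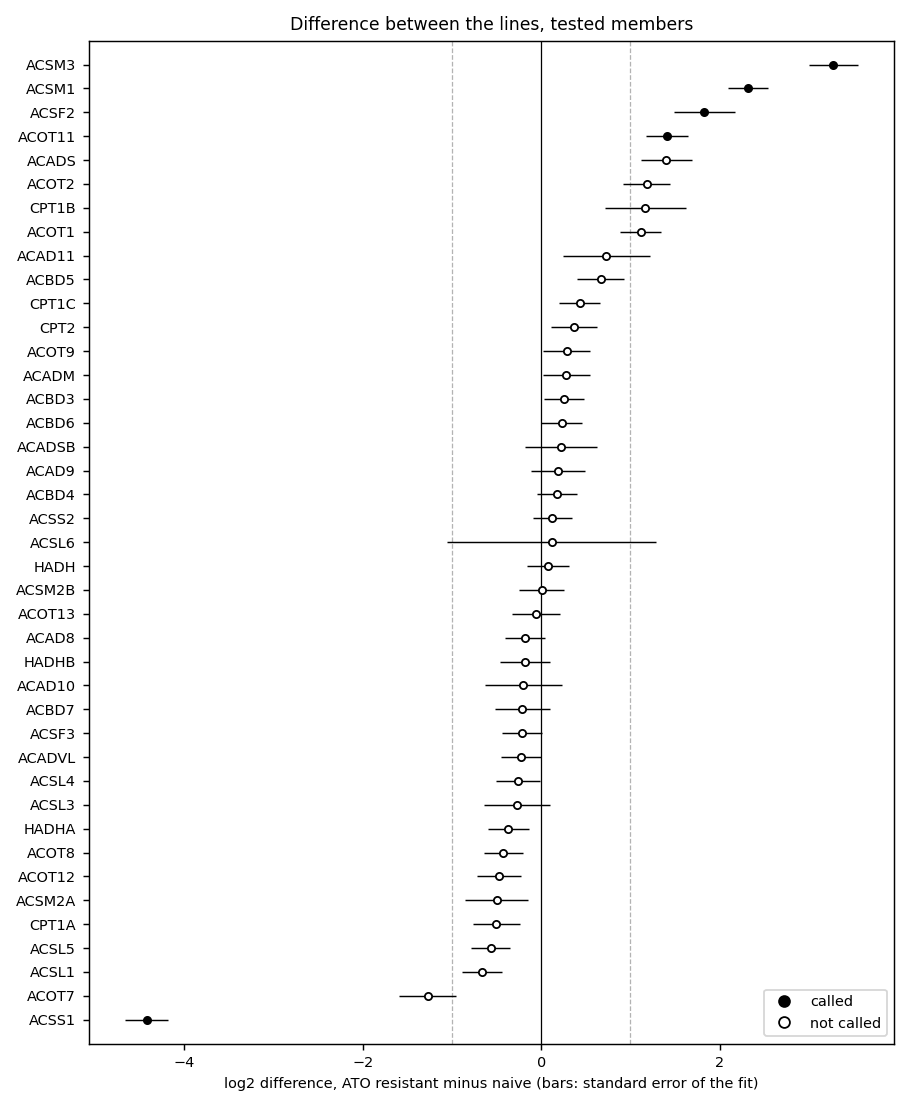
Log2 difference, ATO resistant minus naive, of the 41 tested members (n = 2 flasks per line), with the standard error of the limma fit as bars, filled points for called members and dashed lines at 2-fold. The differences run from -4.42 for ACSS1 to 3.27 for ACSM3, and most members sit close to 0.

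Among the members, the lowest difference was that of ACSS1 and the highest that of ACSM3, both enzymes of the activating step, whose other tested members apart from ACSM1 and ACSF2 were not called. ACSS1 encodes the mitochondrial acetyl-CoA synthetase, which turns free acetate into acetyl-CoA. Its brighter probe (hg19 chr20:24987029-24987088, minus strand) read 1.59 and 1.92 in the naive flasks and -2.69 and -2.64 in the resistant flasks. Both resistant flasks were far below both naive flasks, and the difference of -4.42 ± 0.24 (SE, n = 2 per line) corresponds to a 21.4-fold lower signal. The dimmer ACSS1 probe, whose sequence is shown above (hg19 chr20:24993495-24993554), read -3.48 and -3.89 in the naive flasks and -7.53 and -8.05 in the resistant flasks. In the resistant flasks it did not clear background, so its level there is a bound, and the signal was at least 6.92-fold lower. Such a bound sets the mean of the measured line against the other line's mean of, on each array, the lowest signal that cleared background or the probe's own signal if higher.

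ACSS2, the acetyl-CoA synthetase of the cytosol and nucleus, stood apart from ACSS1. It read -0.05 and -0.02 in the naive flasks and 0.15 and 0.02 in the resistant flasks, a difference of 0.12 ± 0.22. The ranges did not overlap, but the gap between the lines was small and the standard error exceeded the difference.

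The ACSM genes encode medium-chain synthetases of the mitochondrial matrix and lie in a cluster on chromosome 16. ACSM3 (hg19 chr16:20793038-20793097, plus strand) read -4.90 and -4.47 in the naive flasks and -1.23 and -1.60 in the resistant flasks. Both resistant flasks were above both naive flasks by much more than flasks of a line differed, and the difference was 3.27 ± 0.28, a 9.66-fold higher signal. ACSM1 (hg19 chr16:20634829-20634888, minus strand) read -8.61 and -8.41 in the naive flasks and -6.15 and -6.23 in the resistant flasks. In the naive flasks it did not clear background, and in the resistant flasks it was close to that limit, so although it was called, the signal can be given only as at least 1.05-fold higher. ACSM2B read -4.91 and -4.97 in the naive flasks and -4.72 and -5.15 in the resistant flasks, and the lines overlapped, with a difference of 0.01 ± 0.25. ACSM2A also overlapped between the lines, at -0.50 ± 0.35, and was well above background on 1 of the 2 resistant arrays. ACSM2A and ACSM2B are near-identical paralogs whose signals the array may not separate.

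ACSF2, a further mitochondrial medium-chain synthetase, read -1.69 and -0.84 in the naive flasks and 0.52 and 0.61 in the resistant flasks. The resistant flasks lay above the naive flasks, which themselves differed from each other by 0.85, and the difference was 1.83 ± 0.34 (3.56-fold higher). Its relative ACSF3, which activates malonate in mitochondria, read 1.06 and 1.28 in the naive flasks and 0.89 and 1.01 in the resistant flasks, a difference of -0.21 ± 0.23.

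The 5 long-chain synthetases were all measured on all 4 arrays, and none was called. ACSL1, which feeds both oxidation and triglyceride synthesis depending on the tissue, read 1.92 and 2.06 in the naive flasks and 1.38 and 1.26 in the resistant flasks. It was the lowest of its family, at -0.67 ± 0.22, and its lines did not overlap. ACSL5, of mitochondria and the endoplasmic reticulum, differed by -0.56 ± 0.22, also without overlap. ACSL3, which acts at lipid droplets, and ACSL4, which prefers arachidonic acid and thereby shapes membrane phospholipids, differed by -0.27 ± 0.37 and -0.26 ± 0.24, with overlapping flasks.

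ACSL6 was the least reproducible member. Naive flask 1 read -2.17, naive flask 2 read -5.90, and the resistant flasks read -3.90 and -3.93. The naive flasks differed 13.3-fold from each other and lay on either side of the resistant pair, so the difference between the lines of 0.12 ± 1.17 carries no direction. It was well above background on all 4 arrays.

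Acyl-CoA binding proteins hold activated fatty acids and pass them between enzymes and organelles. ACBD5, which ties peroxisomes to the endoplasmic reticulum, was the highest of the 5, with -1.20 and -1.70 in the naive flasks and -0.85 and -0.71 in the resistant flasks. The lines did not overlap, at 0.67 ± 0.27 by this probe and 1.19 ± 0.28 by a dimmer one, and neither was called. ACBD4 gave a divided reading. Its brighter probe read -3.64 and -3.48 in the naive flasks and -3.46 and -3.31 in the resistant flasks, a difference of 0.17 ± 0.23, while its dimmer probe read -5.02 and -4.78 against -3.09 and -3.57 and was called, at 1.57 ± 0.27. The probes lie at different places of the gene (hg19 chr17:43213872-43213931 and chr17:43220926-43220985). The Golgi protein ACBD3 differed by 0.26 ± 0.22 and ACBD6 by 0.23 ± 0.23, and ACBD7, whose probe is uncertain as stated above, was the lowest, at -0.21 ± 0.31.

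Thioesterases release the fatty acid from coenzyme A, and 4 of the 8 tested differed at least 2-fold, against 1938 of all 14667 genes, with ACOT1 and ACOT2 among them resting on largely the same probe bases. ACOT11, a long-chain thioesterase known from brown fat, read -1.48 and -1.33 in the naive flasks and -0.14 and 0.15 in the resistant flasks (hg19 chr1:55075674-55075733, plus strand). The resistant flasks were higher without overlap, at 1.41 ± 0.24 (2.66-fold), and this probe was called. A second ACOT11 probe, designed on another transcript, read -4.93 and -5.00 in the naive flasks and -4.74 and -4.75 in the resistant flasks. Its difference was 0.22 ± 0.22 and it was not called, so the gene's probes disagreed in the call. A further ACOT11 probe was well above background on 1 resistant array and was not tested.

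ACOT1 of the cytosol and ACOT2 of mitochondria, whose brightest probes share most of their bases, gave nearly the same values. ACOT1 read 1.43 and 1.73 in the naive flasks and 2.70 and 2.69 in the resistant flasks, and ACOT2 read 1.25 and 1.65 against 2.50 and 2.76. Both resistant flasks were higher for both probes, at 1.11 ± 0.23 and 1.18 ± 0.26, and neither was called. Some alternatives given at the end called both genes. A separate ACOT2 probe gave 0.79 ± 0.24.

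ACOT7, a cytosolic long-chain thioesterase abundant in brain and macrophages, went the other way. It read 2.75 and 1.98 in the naive flasks and 1.12 and 1.07 in the resistant flasks. The resistant flasks were lower without overlap, at -1.27 ± 0.32, but the naive flasks differed from each other by 0.77, and the gene was not called. Of the others, ACOT8 of peroxisomes differed by -0.42 ± 0.22, the acetyl-CoA hydrolase ACOT12 by -0.47 ± 0.24, ACOT13 by -0.06 ± 0.27 and the mitochondrial ACOT9 by 0.29 ± 0.26. ACOT12 was well above background on 1 of the 2 resistant arrays.

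The carnitine shuttle is the entry of long-chain acyl groups to the mitochondrion, and none of its 4 members was called. CPT1A, the form of liver and most other tissues, read 0.34 and -0.16 in the naive flasks and -0.45 and -0.38 in the resistant flasks. It was lower in both resistant flasks, at -0.50 ± 0.27, and its dimmer probe gave -0.57 ± 0.23. CPT1B, the muscle form, read -0.25 and 1.06 in the naive flasks and 1.58 and 1.57 in the resistant flasks. Both resistant flasks were higher, at 1.17 ± 0.46, yet the naive flasks were further apart (1.31) than the lines. CPT1C, the neuronal form, differed by 0.43 ± 0.23, and CPT2 of the inner mitochondrial membrane by 0.36 ± 0.26, in both cases without overlap.

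The acyl-CoA dehydrogenases carry out the first oxidation of each cycle, each for a range of chain lengths. ACADS, for short chains, read -3.17 and -2.55 in the naive flasks and -1.45 and -1.47 in the resistant flasks. It was higher in both resistant flasks, at 1.40 ± 0.29 (2.64-fold), and was not called, though some alternatives given at the end called it. ACADM, for medium chains, differed by 0.28 ± 0.26. ACADVL, for very long chains, read 4.05 and 4.23 in the naive flasks and 3.97 and 3.85 in the resistant flasks, and was the lowest of its family, at -0.23 ± 0.23. The others were ACAD8 and ACADSB of branched-chain amino acid breakdown, ACAD9, which is also an assembly factor of respiratory complex I, ACAD10 and ACAD11, and they lay between -0.20 and 0.73. For ACAD11 the higher value came with naive flasks at -4.77 and -3.36 against -3.35 and -3.32, so naive flask 1 alone stood apart.

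The last steps of the cycle had no called member. The trifunctional protein, made of HADHA and HADHB, hydrates, oxidises and cleaves long-chain acyl groups, and HADH oxidises shorter ones. HADHA read 3.89 and 3.61 in the naive flasks and 3.41 and 3.36 in the resistant flasks, a difference of -0.37 ± 0.23, and a dimmer HADHA probe gave 0.00 ± 0.24. HADHB read 4.95 and 4.37 against 4.43 and 4.52 with overlap, at -0.18 ± 0.28. HADH read 3.45 and 3.13 against 3.38 and 3.36, at 0.08 ± 0.24, and its resistant flasks lay between the naive flasks.

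Of the 41 members, 17 had more than 1 tested probe. The probes of 13 of these gave differences of one sign and those of 4 gave opposite signs: ACAD9, ACOT9, HADH and HADHA, none of which had a called probe. No member probe was saturated on any array.

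Flasks of the same line gave the scale against which these differences stand. The median size of the difference between the 2 naive flasks over the members was 0.32 on the log2 scale, against 0.12 between the 2 resistant flasks. Over all genes tested these were 0.36 and 0.16, so the members resembled the array as a whole. Beside ACSL6, the naive flasks differed by more than 2-fold for CPT1B, ACAD10, ACAD11 and ACADSB, and the resistant flasks did so for no tested member.

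**Figure D3:**
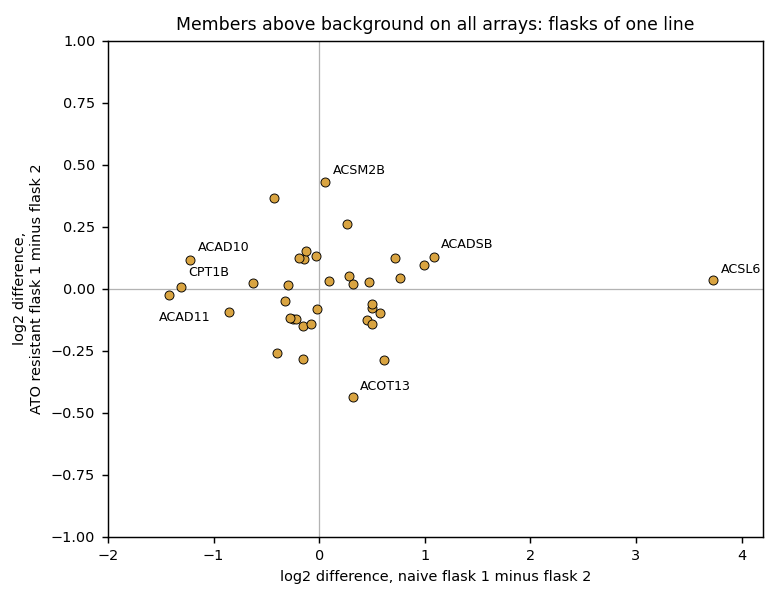
Difference between the 2 naive flasks (horizontal axis, log2) against that between the 2 ATO resistant flasks (vertical axis, log2) for the 38 members well above background on all 4 arrays, each point 1 gene. The naive flasks spread more widely than the resistant flasks, and ACSL6 lies alone at 3.73.

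The same fit was read for other genes of fatty acid handling that the family names do not take. These genes were listed with earlier results of these data known, so their p-values describe the fit and are no independent test. Where 1 line of a called gene was not well above background, a bound is given without a p. The 6 lists held 104 genes on the array, of which 91 were tested and 6 were called, 2 higher and 4 lower, or 6.59% against 6.16% of all genes. Their median difference was 0.16, and more of them, as of all genes, were called when a naive flask was left out. The enzymes of mitochondrial oxidation outside the families made up 1 list, and 0 of its 22 genes was called by limma (3 had an unadjusted p below 0.05). The methods' t-test, adjusted in the same way, called 0 of all genes, so its 0 for this list carries no information. The 3 that differed most were the carnitine transporter SLC22A5 (0.89 ± 0.44, adjusted p = 0.355), the methylmalonyl-CoA mutase MMUT (0.89 ± 0.24, adjusted p = 0.125) and the propionyl-CoA carboxylase subunit PCCB (0.72 ± 0.41, adjusted p = 0.41).

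**Figure D4:**
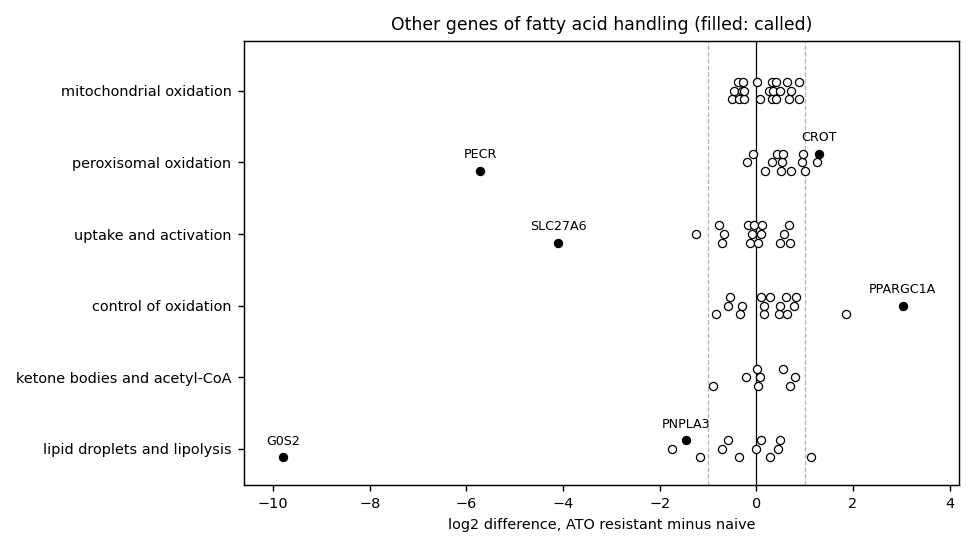
Log2 difference, ATO resistant minus naive, of the 91 tested genes of 6 lists of fatty acid handling (1 point per gene), with called genes filled and named and dashed lines at 2-fold. All 22 genes of mitochondrial oxidation lie within 2-fold, while PECR, SLC27A6 and G0S2 lie far to the left and PPARGC1A to the right.

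In the list of peroxisomal oxidation, 15 genes were tested and 2 called. CROT, which loads shortened acyl groups on carnitine for export to mitochondria, read -5.47 and -5.62 in the naive flasks and -4.26 and -4.23 in the resistant flasks. It rose by 1.30 ± 0.22 (limma adjusted p = 0.0371), and 9 of 15 alternatives lost the call, among them those without resistant flask 1 or 2. PECR, a peroxisomal enoyl-CoA reductase, read -3.29 and -2.72 in the naive flasks and -8.57 and -8.86 in the resistant flasks, where it was not well above background. It was at least 11-fold lower. With normexp background correction, which adds an offset of 50 to the intensities, its difference was -0.81 and not called, and with bright local backgrounds reset as well it was -1.498, both smaller than that bound. The acyl-CoA oxidase ACOX2 (1.25 ± 0.32) and the racemase AMACR (0.96 ± 0.30) did not pass the test.

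Of 16 tested genes of uptake and activation, SLC27A6 was called. This fatty acid transport protein read -3.97 and -4.80 in the naive flasks and was not well above background in the resistant flasks, at -8.50 and -8.47. It was at least 4.24-fold lower. That bound did not hold under normexp (difference -0.093) or with the reset (-0.65), and in neither was the gene called. Its relative SLC27A2 differed by -1.25 ± 0.25 (adjusted p = 0.0627). The fatty acid binding protein FABP5 differed by -0.77 ± 0.29 in a fit that lacked naive flask 2. That value came from a probe that the file places on chromosome 13, among 4 tested for the gene with 0 called. SLC27A4 differed by -0.71 ± 0.24, and neither gene passed.

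Of 17 tested genes that control oxidation, PPARGC1A was called. It encodes a coactivator of mitochondrial and oxidative genes. It was not well above background in the naive flasks, at -8.42 and -8.46, and read -5.37 and -5.46 in the resistant flasks. It was at least 1.80-fold higher, a bound below the 2-fold of the calling rule. Its difference was 0.65 under normexp and 0.60 with the reset, below that bound and not called. The lipid-sensing nuclear receptor PPARG read -3.43 and -2.03 in the naive flasks and -0.81 and -0.93 in the resistant flasks, and its difference of 1.86 ± 0.48 did not pass (adjusted p = 0.117). Nor did those of the receptors RXRA (-0.83 ± 0.22) and PPARA (0.83 ± 0.24).

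Of 8 tested genes of ketone bodies and acetyl-CoA supply, 0 was called by limma (2 had an unadjusted p below 0.05). The methods' t-test, which called 0 of all genes, adds nothing for this list. The largest differences were those of the ketone body transferase OXCT2 (-0.91 ± 0.29), the dehydrogenase BDH2 (0.80 ± 0.27) and the citrate carrier SLC25A1 (0.69 ± 0.41).

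Of 13 tested genes of lipid droplets and lipolysis, 2 were called, both lower. G0S2, an inhibitor of the lipase that opens triglyceride breakdown, read 1.31 and 2.60 in the naive flasks and was not well above background in the resistant flasks, at -8.41 and -7.28. It was at least 344-fold lower. Its difference was -4.66 under normexp, where it was not called, and -5.76 with the reset, both smaller than that bound. PNPLA3, a droplet-bound lipase and acyltransferase, read -4.62 and -4.42 in the naive flasks and -5.75 and -6.21 in the resistant flasks, and fell by 1.46 on the log2 scale (SE 0.27, limma adjusted p = 0.0455). Its call was lost with the sign kept in 9 of 15 alternatives, leaving out either resistant flask included. Under normexp it was not called either, and its difference reversed to 0.0017. The monoglyceride lipase MGLL (-1.75 ± 0.45), the droplet coat protein PLIN2 (-1.17 ± 0.27) and the hormone-sensitive lipase LIPE (1.13 ± 0.81) did not pass.

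Position on the chromosome was not used to choose the members, so the genes beside the called members were read as well. Members were left out as neighbours, although the probes of ACSM1, ACSM3, ACSM2A and ACSM2B lie within 500 kb of one another. Of those 4, ACSM1 and ACSM3 were both called higher. Within 500 kb of the probes of ACSS1, ACSM3, ACSM1 and ACOT11 lay probes of 26 tested genes outside the families. Of these, 0 was called by limma, with 5 at an unadjusted p below 0.05. Some of them were called when a naive flask was left out, where calls rose over all genes as well. The methods' t-test called 0 of all genes, so its 0 for the neighbours carries no information. The ACSF2 probe has no position in the file, and its neighbours were not analysed here. The 6 genes around ACSS1 were all lower in the resistant line, from -0.80 (VSX1) to -0.11 (ENTPD6), against -4.42 for ACSS1, and the nearest, the membrane protein gene APMAP, differed by -0.48 ± 0.22 (limma adjusted p = 0.309). ACSM1 and ACSM3 share most of their neighbours. Outside the families, the nearest to ACSM3 was the exonuclease ERI2 (-0.11 ± 0.25, limma adjusted p = 0.852). The nearest such gene to ACSM1 was THUMPD1 (0.52 ± 0.23, limma adjusted p = 0.298), with the member ACSM2B nearer still. The 8 genes outside the families around ACSM3 ranged from -0.78 to 0.84. The 12 around ACOT11 ranged from -0.63 to 0.75, and the nearest was FAM151A (0.34 ± 0.35, limma adjusted p = 0.654). One of these 12, TALDO1, is placed there by the file while its gene lies on chromosome 11.

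**Figure D5:**
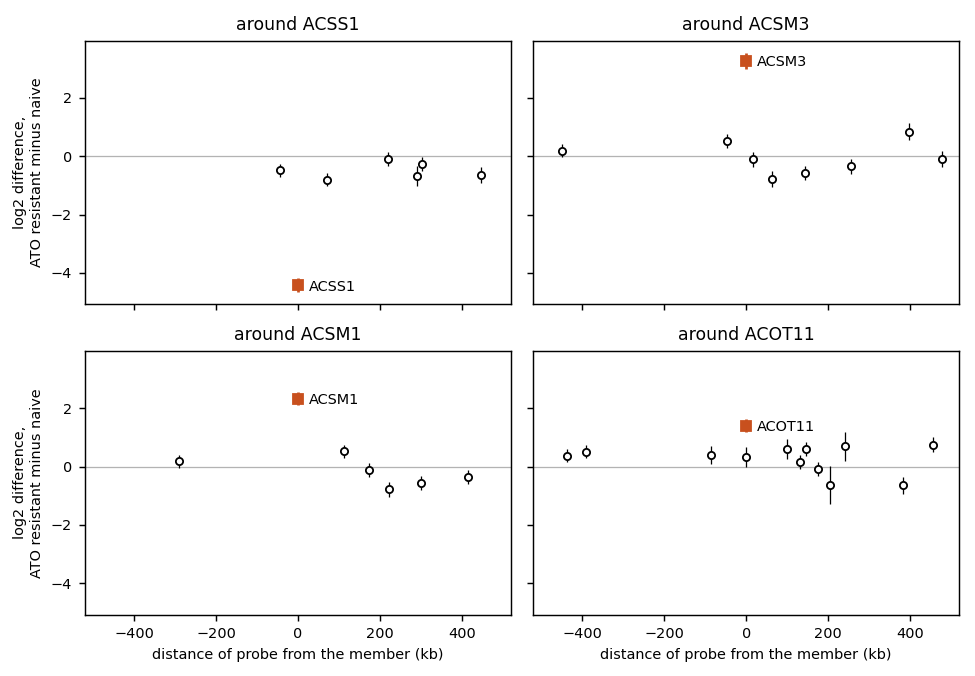
Log2 difference, ATO resistant minus naive, of genes with a probe within 500 kb (open circles, bars are standard errors) against the distance in kb of their probe from that of a called member (orange square). Members are not drawn as open circles. The neighbours outside the families lie between -0.80 and 0.84, while ACSS1 lies at -4.42 and ACSM3 at 3.27.

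Promoter sequence was a second feature that the choice of members did not use. RefSeq promoter windows of GRCh38.p14, 300 bases from upstream to just past a start, were found for 38 of the 45 members, and the first listed start was taken where a gene has several. The members' promoters held a median of 24.5 CpG dinucleotides and 67.2% G and C, against 14 and 58.3% over all 27305 genes with a promoter. That set was not limited to genes on the array or past the filter, so nothing about the families is read from the gap. The AGGTCA letters that nuclear receptors such as the PPARs can bind, searched on both strands, were present in 6 of the 38 (15.8%), those of ACAD10, ACBD3, ACOT7, ACSL5, ACSL6 and ACSM1, and in 13.9% of all promoters. A pair of them 1 base apart, AGGTCANAGGTCA, was found in that of ACBD3 and in 0.022% of all promoters. The promoter of ACSS1, the member with the largest difference, is shown with its 25 CpG dinucleotides in capitals (GRCh38.p14 chr20:25058090-25058389, minus strand).
ACSS1 promoter: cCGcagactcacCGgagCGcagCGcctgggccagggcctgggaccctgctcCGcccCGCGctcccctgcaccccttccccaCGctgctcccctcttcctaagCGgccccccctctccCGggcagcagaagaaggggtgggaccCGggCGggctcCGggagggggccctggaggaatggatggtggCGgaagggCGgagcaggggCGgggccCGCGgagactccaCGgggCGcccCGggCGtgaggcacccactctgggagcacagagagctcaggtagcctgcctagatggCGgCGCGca
A second listed ACSS1 start had 11 CpG dinucleotides, and neither window held AGGTCA. The HADHA and HADHB windows face away from each other and share 194 bases (GRCh38.p14 chr2:26244689-26244882).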

How the data were processed

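Total RNA from 2 naive and 2 ATO resistant flasks was measured on Agilent arrays with a single dye. Image extraction by the authors used Feature Extraction 10.5.1.1, and the deposited processed signal is a linear intensity after background subtraction, beside deposited mean spot and local background intensities. A deposited table of log2 values, to which the authors had applied a 75th percentile shift, served as an alternative. The intensities were converted to log2 and the array's 75th percentile was subtracted, after control spots and outlier spots were left out and the spots of a probe were averaged. Lines were compared with limma 3.58.1 in R 4.3.3 over 28221 probes, of which 1487 were called. Arrays have no read depth, and the 2 flasks per line limit the precision. The smallest two-sided exact permutation p of 2 against 2 is 0.333, so single values were not tested apart from the fit. The flasks are described as independent cultures of each line. Limma's standard errors and p-values combine the spread between a gene's flasks with a variance shared over all probes. A standard error can therefore exceed the gene's own flask spread.

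Current symbols came from RefSeq accessions (26222 of 41000 probes matched), and positions from the file header's build, hg19. Members, lists and markers were chosen with earlier results of these data known. Named in full were called members, members bounded at 2-fold or more, members whose probes disagree in the call, the highest and lowest of each family, called list genes with up to 3 others per list, and the nearest neighbours of called members. One list gene that this rule takes and 1 marker are not reported here. Deviations of same-numbered flasks from their line correlated at 0.119 over 2 pairs, too few to show pairing. Alternatives covered the background correction, normalization, filter, source of the values, test, probe of a gene, replicate block and each flask left out. The fit was checked on simulated data.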

Additional observations from a re-analysis of the deposited data

How the results depend on the processing

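With normexp background correction and with the methods' t-test, 0 of 41 members, 0 of 91 list genes and 0 of all genes passed, with 6 and 7 members and 3 and 9 list genes past an unadjusted p below 0.05 and 2-fold. Of members, 3 passed with no filter on dim probes and 3 when only probes well above background on all 4 arrays were kept, where 1 list gene passed. With normexp and bright local backgrounds reset, 3 list genes passed. Leaving out 1 flask gave 2 to 12 members, 4 to 20 list genes and 0 to 3 neighbours: 12 members without naive flask 2, 2 without either resistant flask, 20 list genes without naive flask 1. The left-out line's lone flask is then assumed to vary like the other line. The median difference of the members ran from -0.083 (without naive flask 2) to 0.11 in those fits. With the replicate block, 4 members, 4 list genes, 0 neighbours and 822 of all genes passed, and ACOT11, CROT and PNPLA3 were lost. Normexp moved PNPLA3 to 0.0017, and ACSL6 reversed to -0.24 under normexp with the reset and to -1.75 without naive flask 2, while without naive flask 1 it was 1.98, and it was called in opposite directions in the 2 fits that left out a naive flask. The cause of these shifts was not tested. ACSS1 and ACSM3 kept their calls in 13 of 15 alternatives each, the exceptions being the 2 in which nothing passed, and ranged from -4.59 to -3.43 and from 1.68 to 3.49. ACSF2 was lost in 8 of 15, ACOT11 in 7 of 15 and ACSM1 in 5 of 14. Of the list genes, CROT was lost in 9 of 15, and PECR, SLC27A6, PPARGC1A and G0S2 in 2 to 3 of 14. PNPLA3 was lost in 9 of 15 and also not called in the 1 fit that reversed it. A slide block could not be fitted, since all arrays share 1 slide.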
